A study of Mus musculus with 32 samples.

Results

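The serpin protease inhibitor family was followed across 4 mouse tissues. Members were all protein-coding genes whose GENCODE mouse M21 symbol starts with Serpin, which gave 61 genes among 51510 genes in the gene table, of which 21644 are protein-coding. All 61 were in the table. They belong to 9 clades, the family's lettered branches: 24 in clade A, 26 in clade B, 3 in clade E, 2 each in clades F and I, and 1 each in clades C, D, G and H. A further 7 genes with a Serpin symbol that are not protein-coding were left out.

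The study sequenced RNA of brown adipose tissue (BAT, the heat-producing fat), heart, liver and skeletal muscle from male C57BL/6J mice. In each tissue there were 4 wild-type (WT) libraries and 4 libraries labelled Mut, a knockout of SMIM30, from 4 individual mice a group, which makes 32 libraries in 8 groups. The allele, the age of the mice and whether the same mice gave all 4 tissues are not stated in the sources used here. Libraries were strand-specific, and the level of a gene is given in TPM, the share of the library that its transcripts take per unit of their length.

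Most serpins inhibit serine proteases by offering an exposed stretch, the reactive centre loop, as bait: the protease cuts the loop, stays bound to it, and both proteins are inactivated. Liver secretes the plasma serpins that restrain clotting, fibrinolysis, complement and neutrophil proteases. Clade B members mostly stay inside cells, and a few members do other work, such as Serpinh1, a chaperone of collagen, or Serpina6 and Serpina7, which carry corticosteroid and thyroid hormone.

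The mouse holds several copies of the genes for alpha-1-antitrypsin, the inhibitor of neutrophil elastase (Serpina1a to Serpina1e), and of the gene for alpha-1-antichymotrypsin (the Serpina3 genes), all on chromosome 12. Their sequences are shown because the copies share many reads and differ most in the loop that meets the protease. The coding sequence of the reactive loop region of the 5 Serpina1 copies follows, 5′ to 3′, in GRCm38 with the M21 annotation. All 5 stretches lie on the minus strand of chromosome 12, within 1 coding exon, and capitals mark the 18 of 87 bases that differ between the copies.
Serpina1a, chr12:103853750-103853836: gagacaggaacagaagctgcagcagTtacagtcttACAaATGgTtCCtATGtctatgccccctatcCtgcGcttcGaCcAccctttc
Serpina1b, chr12:103728317-103728403: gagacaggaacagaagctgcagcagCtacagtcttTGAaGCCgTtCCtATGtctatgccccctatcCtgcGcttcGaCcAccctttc
Serpina1c, chr12:103895087-103895173: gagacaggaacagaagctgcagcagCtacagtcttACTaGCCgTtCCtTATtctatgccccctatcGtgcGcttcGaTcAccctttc
Serpina1d, chr12:103763755-103763841: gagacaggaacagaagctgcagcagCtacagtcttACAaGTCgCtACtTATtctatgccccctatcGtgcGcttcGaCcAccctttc
Serpina1e, chr12:103947093-103947179: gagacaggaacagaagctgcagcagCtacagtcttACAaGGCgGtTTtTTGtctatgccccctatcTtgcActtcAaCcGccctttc

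Any pair of these copies was 96.3 to 98.5% identical over 1239 coding bases. Identity in the loop stretch was 86.2 to 94.3%, against 96.9 to 99.2% in the rest of the coding sequence. Only part of each copy's sequence was its own: 34.8% of the 31-base words of the Serpina1a transcripts occurred in no other gene, as did 55.3% for Serpina1b, 17.8% for Serpina1c, 35.3% for Serpina1d and 45.8% for Serpina1e. Serpina1c shared 77.5% of its words with Serpina1a, and the copies shared 24.2 to 53.0% of theirs with genes outside the family, mainly the pseudogene Gm8893. Values of single copies are therefore uncertain, and their sum is given beside them.

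The same region of 4 Serpina3 genes is shown because the genes begin alike there and then part. Capitals mark the bases between the first 10 and the last 5 codons. The first 3 lie on the plus strand of chromosome 12 and Serpina3c on the minus strand.
Serpina3k, chr12:104345263-104345352: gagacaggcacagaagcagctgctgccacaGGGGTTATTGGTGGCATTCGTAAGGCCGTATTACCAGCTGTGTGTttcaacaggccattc
Serpina3m, chr12:104393763-104393858: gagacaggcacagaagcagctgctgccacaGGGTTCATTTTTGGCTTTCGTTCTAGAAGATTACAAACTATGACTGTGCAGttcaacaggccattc
Serpina3n, chr12:104413442-104413537: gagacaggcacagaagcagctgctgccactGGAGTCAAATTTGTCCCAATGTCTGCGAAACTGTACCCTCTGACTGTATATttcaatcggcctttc
Serpina3c, chr12:104147307-104147393: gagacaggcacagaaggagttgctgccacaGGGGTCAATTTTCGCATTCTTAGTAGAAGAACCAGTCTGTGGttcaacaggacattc

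The Serpina3 genes were easier to tell apart: 75.8% of the words of Serpina3k, 65.0% of Serpina3m, 78.4% of Serpina3n and 83.1% of Serpina3c occurred in no other gene. The capitals number 45 in Serpina3k, 51 in Serpina3m and Serpina3n, and 42 in Serpina3c.

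The Serpina1 copies also share a stretch before their RefSeq start. It is printed for Serpina1a, whose share of the Serpina1 sum was steady, and Serpina1e, whose share was not. The windows come from RefSeq on GRCm38.p6, minus strand, and capitals mark a 13-base stretch, GGTTAATATTCAC, that holds GTTAAT, the first part of the sequence known to be bound by the liver factor HNF1.
Serpina1a, chr12:103863606-103863665: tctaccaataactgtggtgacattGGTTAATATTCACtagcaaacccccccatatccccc
Serpina1e, chr12:103956941-103957000: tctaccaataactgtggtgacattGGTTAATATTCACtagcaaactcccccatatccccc

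The stretch began 17 to 28 bases before the RefSeq start in Serpina1a to Serpina1d and 79 bases before it in Serpina1e. Starts differ between annotations: in M21 the Serpina1e gene spans 103946931 to 103958975, so its window lies inside the gene. The same stretch of Serpina1b also lies inside its M21 gene, which spans 103728156 to 103830373. Searched on both strands (reverse complement GTGAATATTAACC) it occurred in 5 of 32851 promoters of 300 bases, 0.0152%, and those 5 were the Serpina1 copies; it was chosen after these promoters had been read. The shorter GTTAAT (reverse complement ATTAAC) occurred in 2332 of 32851 promoters, 7.1%. Of the 61 members, 52 had a promoter entry. Counted by gene, where any matching promoter of the gene was enough, GTTAAT occurred in 2228 of 27025 genes. It occurred in 7 of the 15 matched serpins that were highest in liver and in 4 of the 37 other matched serpins. Of the 7, 5 are the Serpina1 copies, and without these it occurred in 2 of 10. This motif too was chosen with the Serpina1 promoters known. A match of letters is a description and not a bound site.

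Series-wide checks touched the results as follows. Libraries held 11480 to 12431 genes at 1 TPM or more, and mitochondrial transcripts took 31.7 to 38.3% of TPM in BAT, 40.7 to 54.5% in heart, 10.1 to 14.6% in liver and 22.8 to 30.4% in muscle. RNA of the targeted gene, Smim30, remained in every library labelled Mut: it averaged 23.6 ± 4.21 TPM in Mut heart against 34.6 ± 2.08 in WT heart, and 25.9 ± 1.20 in Mut muscle against 34.3 ± 1.20 in WT muscle (SD, n = 4; exact permutation test, two-sided p = 0.0286 in each tissue, the smallest that 4 against 4 allows, 0.0571 after Benjamini-Hochberg adjustment over 4 tissues). In BAT it averaged 29.5 ± 2.43 against 28.7 ± 4.25 (exact p = 0.686) and in liver 21.1 ± 3.38 against 23.2 ± 3.55 (exact p = 0.429), so the labels of those tissues could not be checked by this gene, and Mut stands here for the label. Summed hepatocyte markers reached 73720 to 97853 TPM in liver, and the marker sets of each tissue named on the labels were highest in that tissue. Sequencing depth is unknown, since TPM keeps none, so no counting interval is given, and p-values measure the spread between the mice of a group.

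Liver held by far the largest share of serpin RNA. The 61 genes together took 3.63 ± 0.285% of all TPM in WT liver (SD, n = 4, libraries 3.24 to 3.89%). They took 0.0637 ± 0.0107% in WT BAT, 0.0635 ± 0.00310% in WT heart and 0.101 ± 0.00976% in WT muscle. In liver the 5 Serpina1 copies alone accounted for 2.56% of all TPM in WT and 2.05% in Mut. In Mut liver the whole family took 2.92 ± 0.440% (libraries 2.32 to 3.37%). The WT and Mut ranges overlapped, and no test was run on this sum.

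A mean of at least 1 TPM in some group was reached by 31 members, and at least 10 TPM by 22. By clade, the 31 were 16 of 24 in clade A, 6 of 26 in clade B, 2 of 3 in clade E, both of clade F, 1 of 2 in clade I, and the only members of clades C, D, G and H. The other 30 stayed under 1 TPM in every group: their highest value in any library was 0.309 TPM, in Serpina3i. Of these, 22 were under 0.1 TPM in every library and 11 were at 0 in all 32, namely Serpinb3a, Serpinb3b, Serpinb3c, Serpinb3d, Serpinb9c, Serpinb9d, Serpinb9f, Serpinb9g, Serpinb11, Serpinb13 and Serpini2.

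**Figure D1:**
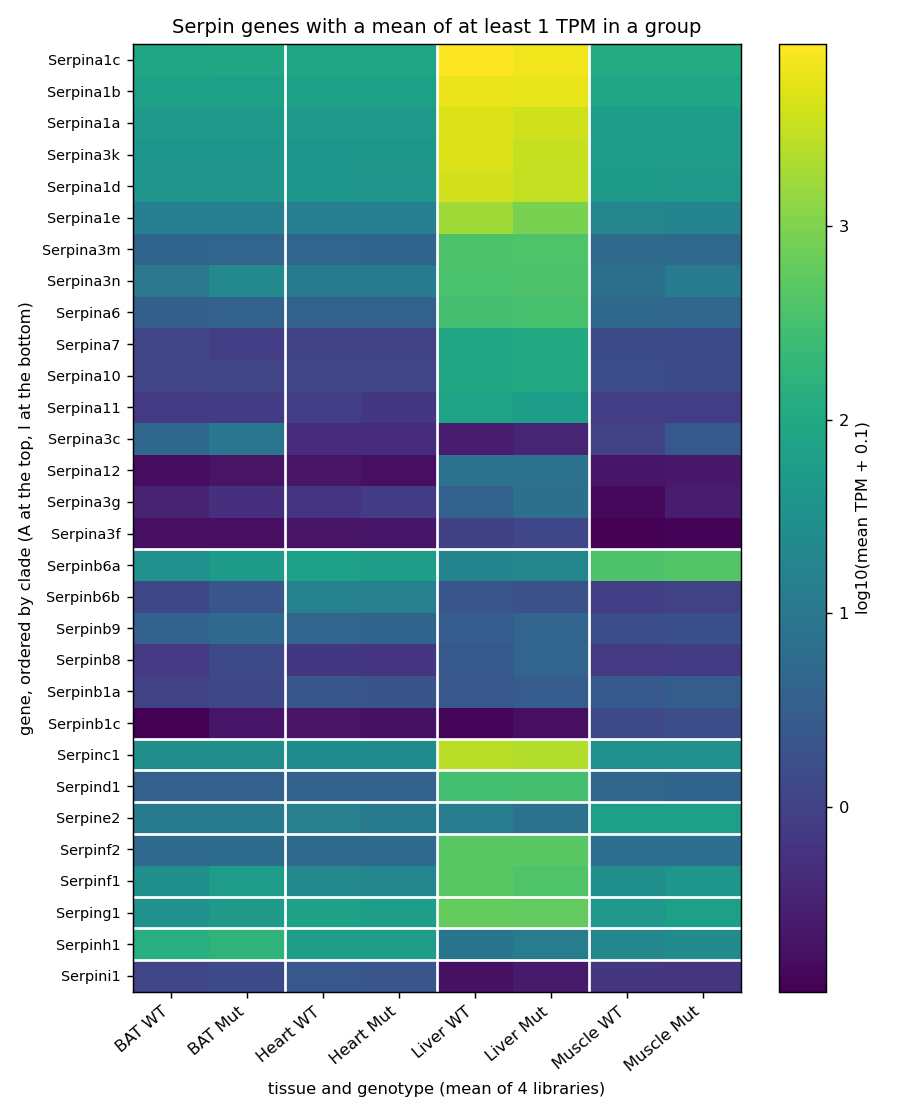
Colour gives log10 of the mean TPM plus 0.1 of 30 of the 31 Serpin genes with at least 1 TPM in some group (rows, by clade) in each of the 8 tissue-by-genotype groups (columns). The clade A genes other than Serpina3c, and Serpinc1, Serpind1, Serpinf1, Serpinf2 and Serping1 are highest in the liver groups, while Serpinb6a and Serpine2 are highest in muscle and Serpinh1 in BAT.

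Each member was compared between tissues in the 16 WT libraries with limma, and called highest in a tissue when it exceeded each of the other 3 at a Benjamini-Hochberg adjusted p under 0.05. Of 30 members with enough signal to test, 27 were highest in 1 tissue; among all 14310 genes tested the share was 67.2%. Liver led with 20 members (background 26.8%), followed by muscle with 3 (background 17.3%), BAT with 2 (background 14.2%) and heart with 2 (background 8.86%). The 20 in liver were Serpina1a to Serpina1e, Serpina3g, Serpina3k, Serpina3m, Serpina3n, Serpina6, Serpina7, Serpina10, Serpina11, Serpina12, Serpinb8, Serpinc1, Serpind1, Serpinf1, Serpinf2 and Serping1. The plot of group means by gene shows this order at a glance. The 6 pairs of tissues share their libraries.

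The antitrypsin copies included the 3 most abundant serpins of WT liver. In WT liver Serpina1c was read at 8303, 7226, 9834 and 9634 TPM, against 4385, 7807, 8085 and 7316 in Mut. Serpina1b was read at 6419, 6314, 6006 and 6494 in WT and 5434, 5865, 5639 and 5946 in Mut. The Mut values of Serpina1b were all under the WT values, while those of Serpina1c overlapped. Serpina1a was read at 4970.4, 4202, 5094 and 5061 in WT and 3166, 3785, 3834 and 4510.1 in Mut. Serpina1d was read at 3704, 3854, 3851 and 4497.5 in WT and 2766, 3409, 3062 and 3382 in Mut. The groups of Serpina1d did not overlap, and those of Serpina1a overlapped through the lowest WT and the highest Mut library.

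Serpina1e differed from its neighbours by its spread. It was read at 4564, 610.1, 730.4 and 1124 TPM in WT liver and at 66.8, 165, 723 and 2649 TPM in Mut liver, so that the highest library held 68.4 times the lowest. Its coefficient of variation was 107% in WT and 133% in Mut, where the median of all liver genes was 12.5% and 11.6% and the 95th percentile 39.9% and 45.0%. Of the Serpina1 sum it made 16.3, 2.75, 2.86 and 4.19% in the 4 WT libraries and 0.422, 0.784, 3.39 and 11.1% in the 4 Mut libraries, while Serpina1a kept to 18.9 ± 0.893% and 18.7 ± 0.969% (SD, n = 4). The WT library with the most Serpina1e also had the most Saa1, an acute phase gene, at 1101 TPM against 101 to 111 in the other WT libraries. The same held among Mut libraries, where Saa1 was 1042 TPM against 226 to 302. Saa1 is 1 of 20 acute phase genes listed, and the others are not given by library here. Serpina3n, given below, was highest in the Mut library with the most Serpina1e but not in the WT library with the most. A relation between the genes was not tested.

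The sum of the 5 copies was 27961, 22206, 25515 and 26810.2 TPM in WT and 15818, 21030.2, 21342 and 23803 TPM in Mut liver. The ranges overlapped, and the log2 difference was −0.33 (limma, adjusted p = 0.273). The individual copies gave log2 differences of −0.34 (Serpina1a), −0.14 (Serpina1b), −0.37 (Serpina1c), −0.34 (Serpina1d) and −1.68 (Serpina1e), with adjusted p from 0.124 to 0.440, and none passed.

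**Figure D2:**
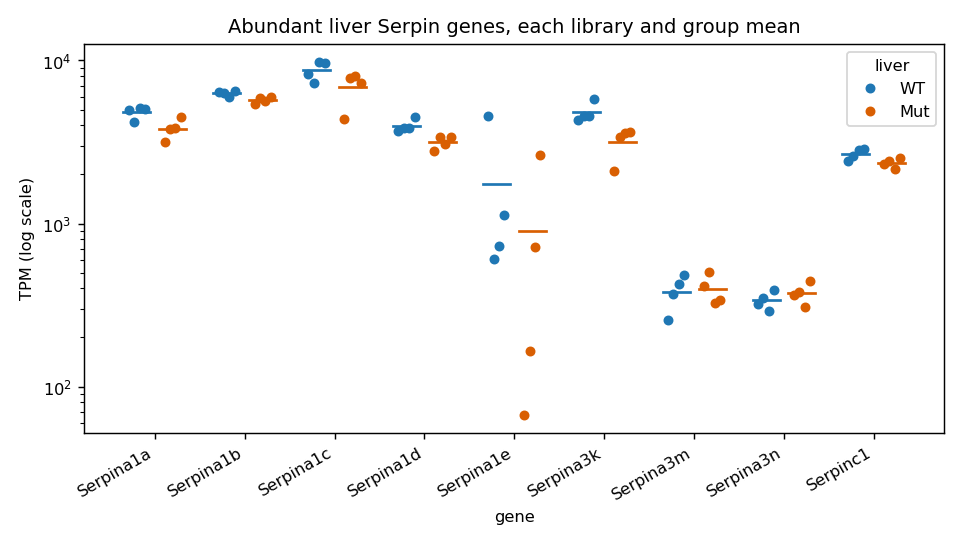
TPM (log scale) of 9 abundant liver Serpin genes in each WT and Mut liver library (points) with group means (bars). Serpina1e spans 66.8 to 4564 TPM, where Serpina1b stays between 5434 and 6494.

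The plot of liver genes by library shows that the other abundant members varied far less than Serpina1e. Serpina3k, whose product inhibits tissue kallikrein, was read at 4327, 4557, 4575 and 5804 TPM in WT and at 2103, 3409, 3585 and 3634 in Mut liver. The groups did not overlap: the mean was 4816 ± 669 in WT and 3182 ± 726 in Mut (SD, n = 4), a log2 difference of −0.62 with a standard error of 0.19 (limma, adjusted p = 0.0915). Serpina3m was read at 254, 367, 423 and 481 in WT and 415, 504, 323 and 341 in Mut. Serpina3n, a mouse counterpart of antichymotrypsin, was read at 322, 348, 290.4 and 392 in WT and 362, 379, 309.6 and 442 in Mut, and these groups overlapped. The Serpina3 genes summed gave a log2 difference of −0.49 with adjusted p = 0.1135.

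Serpins of clotting and fibrinolysis were the next group. Serpinc1 (antithrombin, which inhibits thrombin and factor Xa) was read at 2425, 2596, 2834 and 2854 TPM in WT liver and 2321, 2409.8, 2145 and 2516 in Mut. Serpind1 (heparin cofactor II, a thrombin inhibitor) was read at 314, 298, 302 and 294 in WT and 295, 305, 301 and 377 in Mut. Serpinf2 (alpha-2-antiplasmin, the plasmin inhibitor) was read at 438, 485, 464 and 576 in WT and 377, 439, 462 and 639 in Mut. Of Serpinc1 TPM in WT liver, 57.7% was assigned to a coding transcript and 34.4% to one annotated for nonsense-mediated decay. All 3 genes overlapped between genotypes, with log2 differences of −0.19, 0.07 and −0.05 (adjusted p 0.295, 0.651 and 0.857). Serpina10 (the protein Z-dependent inhibitor) was read at 84.2, 87.3, 96.9 and 112 TPM in WT and 91.2, 96.0, 97.0 and 142 in Mut. Its log2 difference was 0.15 with adjusted p = 0.566.

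The hormone carriers were liver genes too. Serpina6 (corticosteroid-binding globulin) was read at 412, 266, 308 and 252 TPM in WT liver and 311, 336, 349 and 315 in Mut. Serpina7 (thyroxine-binding globulin) was read at 89.4, 105, 71.7 and 82.7 TPM in WT and 124, 79.4, 92.3 and 135 in Mut. Neither passed the test, with log2 differences of 0.11 and 0.28 (adjusted p 0.670 and 0.341). Serpina11 was read at 78.3, 65.3, 86.8 and 78.1 TPM in WT and 42.2, 51.2, 59.8 and 85.4 in Mut. Its log2 difference was −0.41 (limma, adjusted p = 0.211), and 37.2% of its 31-base words were shared with genes outside the family, mainly the gene model Gm28577, so its reads are uncertain. Serpina12 (vaspin) averaged 7.23 ± 2.65 TPM in WT and 7.53 ± 3.07 in Mut.

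Outside liver, most of these genes were read at a steady small share of their liver level. Serpins with at least 50 TPM in WT liver were compared, and lower ones were not. Serpina3n, Serpinf1 and Serping1 stood above that share and were set aside, which narrows the ranges given. For the other 14 (the Serpina1 copies, Serpina3k, Serpina3m, Serpina6, Serpina7, Serpina10, Serpina11, Serpinc1, Serpind1 and Serpinf2) the mean in a tissue was divided by the mean over all 8 liver libraries. It was 0.930 to 1.15% in WT BAT (median 1.08%), 0.883 to 1.21% in WT heart (median 1.11%) and 1.13 to 1.55% in WT muscle (median 1.42%). The Mut libraries gave medians of 1.10, 1.08 and 1.35%. The 10 hepatocyte markers measured the same way gave 0.956 to 1.20% in WT BAT, 0.996 to 1.24% in WT heart and 1.28 to 1.46% in WT muscle.

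Serpina1e showed the steadiness most plainly. It varied 68.4-fold between liver libraries but 1.64-fold over the 24 libraries of the other tissues, at 12.6 to 20.6 TPM. The 6 skeletal myofibre markers were read at 1.23 to 1.87% of their muscle level in the other tissues, apart from Ckm at 8.64% in heart. The 6 ventricular markers were read at 1.27 to 1.60% of their heart level in BAT and liver and at 1.74 to 12.4% in muscle. The 8 brown adipocyte markers ranged from 1.58 to 219.5% of their BAT level, Ucp1 from 1.58 to 2.05%. The source of these shares was not tested, and low levels of liver serpins outside liver are given only as levels. In all 3 tissues Serpina3n, Serpinf1 and Serping1 stood above this share, at 2.08 to 3.51%, 4.66 to 6.36% and 5.43 to 11.5% of the WT liver level in WT tissues.

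**Figure D3:**
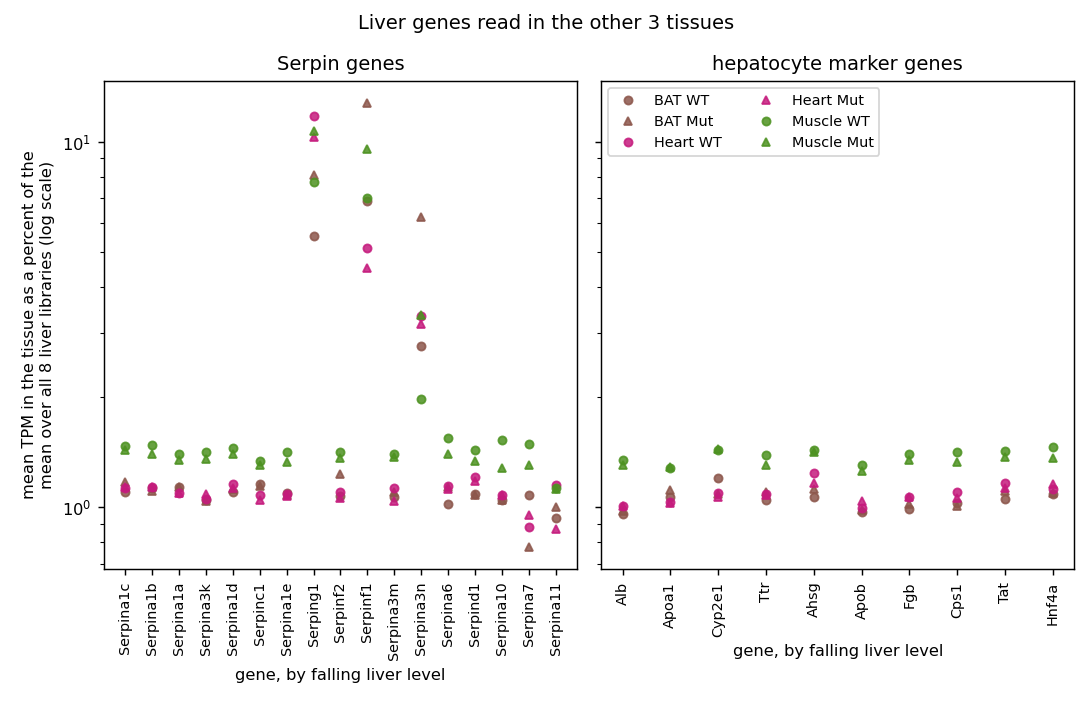
Mean TPM in BAT, heart and muscle as a percent of the mean over all 8 liver libraries (log scale), for 17 liver Serpin genes (left) and 10 hepatocyte markers (right), with WT as circles and Mut as triangles. The 14 genes named in the text lie near 1%, as the hepatocyte markers do, and Serping1, Serpinf1 and Serpina3n lie above.

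Muscle was the tissue of Serpinb6a, an intracellular inhibitor of trypsin-like proteases. It was read at 472, 329, 307 and 417 TPM in WT muscle and 282, 527, 547 and 389 in Mut muscle, where the groups overlapped. WT heart averaged 69.0 ± 3.52 TPM, WT BAT 32.8 ± 7.94 and WT liver 17.9 ± 0.971 (SD, n = 4). Muscle exceeded heart by 2.43 on the log2 scale (limma, adjusted p = 2.76e-10). Serpine2 (protease nexin-1, an inhibitor of thrombin) was also highest in muscle, at 62.3, 68.2, 59.3 and 66.3 TPM in WT and 61.6, 64.5, 70.0 and 65.9 in Mut. WT heart had a mean of 15.3 ± 1.82 TPM for Serpine2, which was 2.00 lower than muscle on the log2 scale.

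Serpinb6a reads were also split unequally between its annotated transcripts. The gene lies on the minus strand of chromosome 13 (33917918 to 34002794 in the M21 annotation). Some transcripts carry an additional exon, which in ENSMUST00000171252 is chr13:33935569-33935794. There it lies before the start codon, which ENSMUST00000043552 shares. The start codons of the other transcripts with the exon were not compared. Transcripts with the exon took 69.4 to 72.5% of Serpinb6a TPM in WT muscle and 68.1 to 73.8% in Mut muscle. They took 13.2 to 32.3% in BAT, 23.7 to 39.3% in heart and 20.6 to 34.9% in liver. The 8 muscle libraries did not overlap the other 24. The gene has 17 transcripts in the table, 5 with the exon and 12 without it. Among the latter, ENSMUST00000043552 took 22.5 to 27.8% in muscle, 61.7 to 77.9% in BAT, 52.9 to 67.1% in heart and 30.3 to 58.7% in liver. No test was run on these shares, which are estimates of the quantifier.

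**Figure D4:**
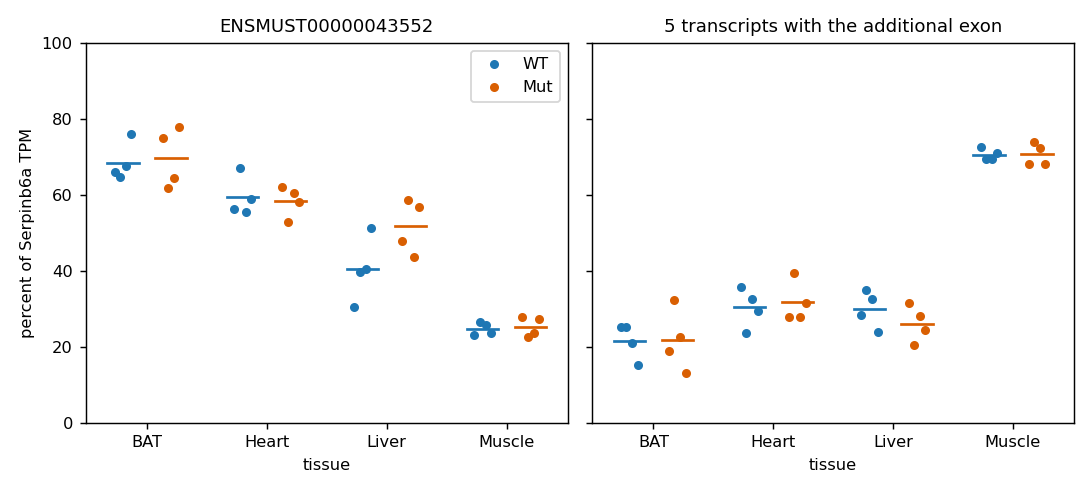
Share of Serpinb6a TPM (percent, each library as a point and each group mean as a bar) on ENSMUST00000043552, 1 of the 12 transcripts without the additional exon (left), and on the 5 transcripts with it (right). In muscle the transcripts with the exon take 68.1 to 73.8%, above every library of the other tissues.

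BAT was highest for Serpinh1 (HSP47, which helps fold collagen). It was read at 95.2, 106, 161 and 164 TPM in WT BAT and 183, 145, 154 and 192 in Mut. WT heart averaged 62.4 ± 4.45 and WT muscle 20.2 ± 1.29 TPM (SD, n = 4), and BAT exceeded heart by 1.03 on the log2 scale (limma, adjusted p = 8.81e-06). Serpina3c averaged 4.63 ± 1.09 TPM in WT BAT and 0.876 ± 0.198 in WT muscle, and was also highest in BAT.

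Heart was highest for Serpinb6b and Serpini1. Serpinb6b was read at 13.9, 15.6, 16.0 and 16.7 TPM in WT heart and 13.6, 13.9, 16.3 and 15.9 in Mut, against a mean of 1.11 ± 0.209 in WT BAT and 2.03 ± 0.809 in WT liver. BAT was lower than heart by 2.98 on the log2 scale. Serpini1 (neuroserpin, an inhibitor of tissue plasminogen activator) averaged 2.21 ± 0.494 TPM in WT heart, 1.06 ± 0.256 in BAT and 0.0858 ± 0.0290 in liver. Serpinb1c had 1.26 ± 0.438 TPM in WT muscle and 0.0106 to 0.0964 TPM on average in the other WT tissues. Its reads in Mut muscle were assigned for 83.4% to a transcript annotated for nonsense-mediated decay. Serpinb1a and Serpinb9 were highest in no tissue. Serpinb1a, an inhibitor of neutrophil proteases, averaged 0.886 ± 0.220 TPM in WT BAT, 2.15 ± 0.608 in heart, 2.23 ± 0.389 in liver and 2.36 ± 1.42 in muscle. Serpinb9, the granzyme B inhibitor, averaged 3.73 ± 0.317 in BAT, 4.28 ± 0.324 in heart, 2.90 ± 0.925 in liver and 1.48 ± 0.281 in muscle. Serpina3f, with 0.820 ± 0.243 TPM in WT and 1.14 ± 0.615 in Mut liver, was the lowest of the members that reached 1 TPM.

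The effect of the Mut label was tested in each tissue with limma on log2(TPM + 1) over all genes averaging 1 TPM or more, which left 24 members in BAT, 23 in heart, 27 in liver and 24 in muscle. No member passed an adjusted p under 0.05 in any tissue. Over all genes the percentage called was 0 in BAT, 0.15 in heart, 4.16 in liver and 0.0085 in muscle. At an unadjusted p under 0.05 there were 7 members in BAT (all genes 19.5%), 1 in heart (11.6%), 9 in liver (25.9%) and 5 in muscle (7.76%). In bulk tissue, fewer cells of a type and less RNA per cell cannot be told apart.

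The members' median log2 difference was 0.13 in BAT, −0.04 in heart, 0.02 in liver and −0.03 in muscle, against 0.09, −0.11, 0.10 and 0.05 over all genes. Members above 0 numbered 19 of 24 in BAT (all genes 72.7%), 4 of 23 in heart (19.3%), 14 of 27 in liver (69%) and 11 of 24 in muscle (67%). Scaling by median ratios moved the median of all genes to −0.01 in BAT and 0.00 in heart, liver and muscle. Members above 0 then numbered 13 of 24 in BAT (all genes 48.4%), 18 of 23 in heart (49.7%), 9 of 27 in liver (49.1%) and 10 of 24 in muscle (49.2%). The members tested outside liver include the liver serpins read at the small share given above.

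In liver, the WT and Mut groups of 6 of the 27 members tested did not overlap (all genes 16.4%). Serpina3g and Serpinh1 were above WT in every Mut library (all genes 14.3%), and Serpinf1, Serpina3k, Serpina1d and Serpina1b were below it (all genes 2.12%). Serpina1b and Serpina1d share part of their reads. Of the 10 hepatocyte markers, 9 were below 0 in Mut liver too, with a median log2 difference of −0.16 and none called. These markers summed to 83711 to 97853 TPM in WT and 73720 to 97786 in Mut liver, and their part in the lower serpins was not tested. Serpinh1 was read at 8.38, 9.96, 7.67 and 8.64 TPM in WT and 14.7, 11.0, 10.1 and 13.9 in Mut liver, a log2 difference of 0.47 with a standard error of 0.13 (limma, adjusted p = 0.0681). Among 16 tested genes of collagen and its processing, listed as partners of Serpinh1, 14 were above 0 and 4 rose: Col1a1 from 1.83 to 5.04 TPM (adjusted p = 0.0205), Col1a2 from 3.92 to 7.92 (0.0247), Col3a1 from 8.09 to 19.1 (0.0254) and Col4a1 from 5.09 to 11.3 (0.0313). None of the 16 fell. Over all genes tested in liver, 69% were above 0 and 3.78% rose. Col1a1, Col1a2 and Col3a1 are also on the fibroblast list.

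Serpina3g averaged 3.54 ± 0.719 TPM in WT and 6.86 ± 4.64 in Mut liver, where 1 Mut library stood at 13.8 (log2 difference 0.66, adjusted p = 0.208). Serpinb8 averaged 2.32 ± 0.878 and 4.30 ± 0.994, a log2 difference of 0.70 (adjusted p = 0.0760). Serpine2 averaged 13.0 ± 3.47 and 7.50 ± 2.86 TPM, a log2 difference of −0.76 (adjusted p = 0.109), with overlapping groups. Of 20 tested acute phase genes, 3 rose in Mut liver, against 3.78% of all genes. They were Orm3 from 3.27 to 12.2 TPM (limma, adjusted p = 0.0114), Lcn2 from 14.7 to 55.6 (0.0250) and Saa3 from 7.39 to 18.8 (0.0353). Macrophage markers summed to 46.0 to 151 TPM in WT and 105 to 319 in Mut liver, and fibroblast markers to 101 to 141 and 131 to 200; their part in these values was not tested. Of the other liver lists, 2 of 12 clotting proteases and 6 of 7 complement proteases were above 0. So were 3 of 5 leukocyte and lysosomal proteases, 8 of 15 serpin cofactors and clearance receptors, and 1 of 9 carriers and lipoproteins. Of the genes of protein quality control in the endoplasmic reticulum 17 of 17 were above 0, where 69% of all genes were. None of the genes of these lists passed.

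In BAT, 4 members did not overlap between groups, all higher in Mut, against 7.75% of all genes in that direction: Serpinf1, Serpinb6a, Serpinb6b and Serpinb9. Serpinf1 (PEDF, a secreted member without known protease inhibition) was read at 20.0, 33.0, 37.4 and 29.7 TPM in WT and 72.2, 47.1, 42.0 and 60.3 in Mut, a log2 difference of 0.87 with a standard error of 0.21 (limma, adjusted p = 0.123). Serpinb6a was read at 23.5, 31.2, 42.8 and 33.7 TPM in WT and 58.6, 51.6, 47.0 and 52.5 in Mut (log2 difference 0.69, adjusted p = 0.122). Serpina3n averaged 9.79 ± 1.96 and 22.1 ± 11.3 TPM (0.98, adjusted p = 0.167), with overlap. Serpinb6b averaged 1.11 ± 0.209 in WT and 2.03 ± 0.127 in Mut (0.53, adjusted p = 0.106), and Serpinb9 3.73 ± 0.317 and 5.20 ± 0.286 (0.39, adjusted p = 0.114). Without WT library 3, Serpinf1, Serpinb6a, Serpinb6b and Serpinb9 passed, as did 6.74% of all genes. In 1 fit over all 32 libraries 8 of 24 members passed in BAT (all genes 6.98%) and 9 of 27 in liver (all genes 15.9%).

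No gene of the pathway lists passed in BAT. Of the genes of collagen and its processing, 18 of 19 were above 0 with a median of 0.50. Of the leukocyte and lysosomal proteases, a list that includes cathepsins, 8 of 8 were above 0 with a median of 0.46. Above 0 were also 10 of 11 clotting proteases, 6 of 6 complement proteases and 15 of 18 acute phase genes, where 72.7% of all genes were above 0. Fibroblast markers summed to 192 to 338 TPM in WT and 409 to 745 in Mut BAT. Macrophage markers reached 46.7, 76.6, 273 and 159 TPM in WT and 254 to 321 in Mut, and red cell markers 2096 to 3864 and 4081 to 6221. WT libraries 1 and 2, low in macrophage markers, were the ones with the lowest Serpinh1. Skeletal myofibre markers reached 1059 to 1159 TPM in WT BAT and 1601, 2474, 1680 and 958 in Mut, where Serpinb6a was higher too. Mut library 4 had fewer of these markers than any WT library, and more Serpinb6a than any WT library. Leaving WT libraries 1 and 2 out, an alternative added after the data were seen, left 0 members called. The part of these cell types in the values was not tested.

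In muscle, Serpinf1 was read at 28.8, 33.5, 29.1 and 30.3 TPM in WT and 41.9, 43.2, 44.0 and 37.3 in Mut, with no overlap and a log2 difference of 0.44 with a standard error of 0.08 (limma, unadjusted p = 0.000258, adjusted p = 0.234). Serping1 (C1 inhibitor, of complement and the contact system) was read at 48.2, 47.3, 40.5 and 48.5 in WT and 58.0, 70.0, 64.6 and 61.6 in Mut, a log2 difference of 0.45 (adjusted p = 0.262). Serpina3n was read at 8.02, 6.57, 6.59 and 6.93 in WT and 7.38, 19.2, 13.4 and 7.68 in Mut, where 2 libraries stood high (log2 difference 0.59, adjusted p = 0.637). Serpinf1, Serping1 and Serpinh1 were among 4 members that lay above WT without overlap (all genes 3.83%), and Serpina6, at 4.92 against 4.43 TPM on average, lay below it (all genes 0.663%). These Serpina6 values were 1.55% of the liver mean in WT and 1.39% in Mut, near the small share given above, and are given only as levels. Fibroblast markers summed to 346 to 419 TPM in WT and 447 to 502 in Mut muscle, and macrophage markers to 43.1 to 55.6 and 63.7 to 81.4. The part of these cells was not tested. Above 0 in muscle were 17 of 19 genes of collagen and its processing and 9 of 9 leukocyte and lysosomal proteases (all genes 67%). None of them was called.

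In heart, Serpine2 was read at 14.2, 13.9, 15.0 and 17.9 TPM in WT and 10.7, 9.08, 13.4 and 11.5 in Mut, with no overlap (all genes lower without overlap 7.21%). The log2 difference was −0.42 (limma, adjusted p = 0.375), and −0.30 with median-ratio scaling. Atrial markers summed to 329.7 to 3327 TPM in WT heart and 22.6 to 88.8 in Mut heart, and all 5 of these markers fell; their part in Serpine2 was not tested. No other member lay apart. In heart 7 of 19 genes of collagen and its processing and 8 of 10 clotting proteases were above 0. Of the quality control genes 3 of 16 were, where 19.3% of all genes were above 0, and no gene of these lists passed. Serping1 was read at 60.1, 65.5, 67.5 and 86.1 in WT and 58.9, 50.7, 73.0 and 63.1 in Mut.

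Whether the Mut difference itself varied between tissues was tested with limma's F test over all 32 libraries. Of 30 members tested, 3 passed, against 6.03% of 14367 genes. Serpinf1 had adjusted p = 0.000732, with log2 differences of 0.87 in BAT, −0.18 in heart, −0.29 in liver and 0.44 in muscle. In liver it was read at 509.8, 454, 488 and 462 TPM in WT and 382, 422, 370.1 and 394 in Mut, without overlap. In heart it was read at 22.3, 21.5, 22.5 and 22.8 in WT and 18.0, 19.8, 22.7 and 18.1 in Mut. Serpinf1 thus lay higher in every Mut library of BAT and muscle, and lower in every Mut library of liver, than in any WT library of that tissue.

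Serping1 had adjusted p = 0.0495, with log2 differences of 0.56 in BAT, −0.18 in heart, −0.07 in liver and 0.45 in muscle. In BAT it was read at 24.2, 28.7, 39.5 and 39.0 TPM in WT and 57.0, 46.5, 39.1 and 50.5 in Mut, and in liver at 639, 530.3, 595 and 655 in WT and 455, 547, 555 and 784 in Mut. Serpina3k had adjusted p = 0.0414, with log2 differences of −0.62 in liver and −0.01, 0.05 and −0.06 in BAT, heart and muscle, where it was read at 37.3 to 60.2 TPM, near the small share of liver levels given above. The call of Serpinf1 held in all 39 alternative settings. Serping1 held in 12 of them and Serpina3k in 23.

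**Figure D5:**
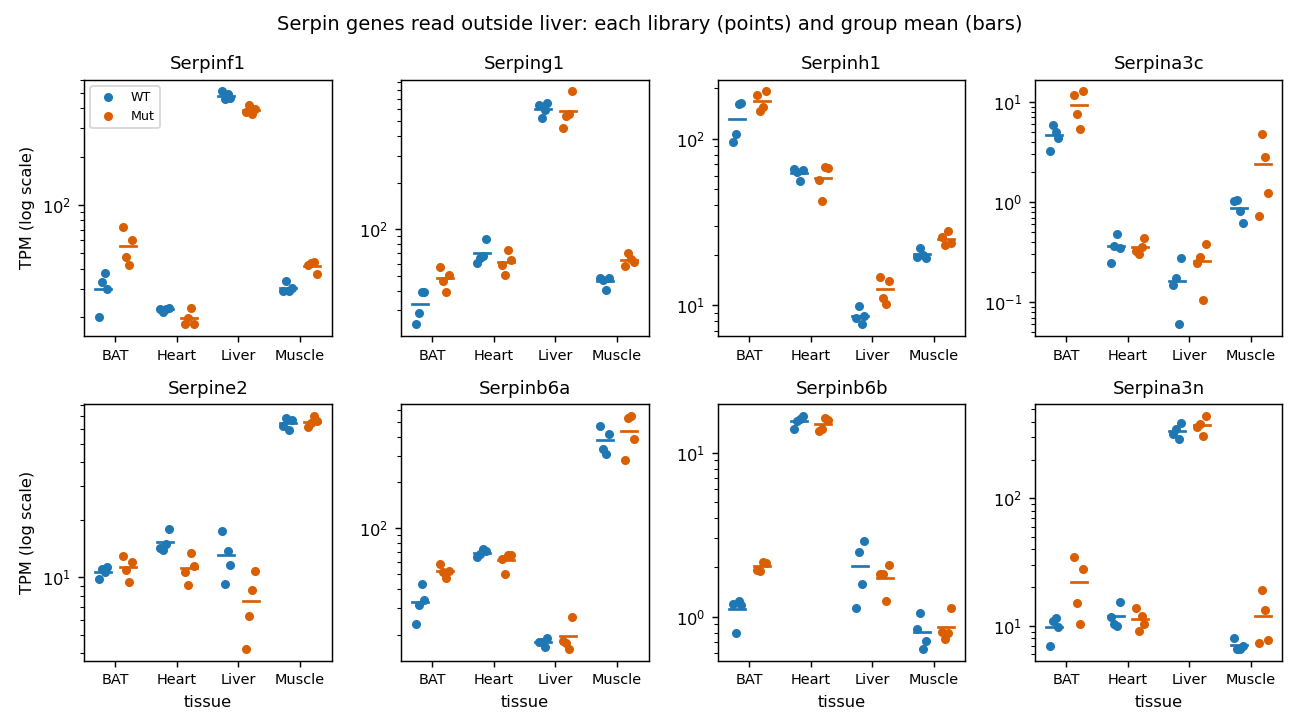
TPM (log scale) of 8 Serpin genes in each library (points) and group means (bars), by tissue and genotype. Serpinf1 lies higher in Mut than in WT in BAT and muscle and lower in Mut in liver, and Serpine2 and Serpinb6a are highest in muscle.

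The plot by tissue and genotype also shows Serpina3c, which was read at 3.27, 5.86, 4.99 and 4.41 TPM in WT BAT and 11.9, 7.51, 5.33 and 12.8 in Mut BAT. The groups overlapped, with a log2 difference of 0.83 (limma, adjusted p = 0.151).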

How the data were processed

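RNA levels were measured in 32 libraries of 4 tissues, 4 WT and 4 Mut mice in each. The authors deposited 1 table of transcript TPM values made with Salmon, per the submitters' processing notes; its version, the annotation release and the build behind it were not given in the sources used here. TPM values summed to 999999.4 to 1000000.3 in each library. Of 147493 transcripts, 136081 (92.3%) matched GENCODE M21 by identifier without version (37 with the same version), and their TPM were summed per gene; the 11412 unmatched transcripts held 0.451 to 0.896% of TPM.

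Log2(TPM + 1) of genes averaging 1 TPM or more was fitted with limma 3.58.1 in R 4.3.3 (mean-variance trend, Benjamini-Hochberg adjustment over all genes, adjusted p under 0.05). Fold changes are on that log2 scale, which understates the change of low genes. Tables were made with Python 3.11.15, pandas 2.3.3 and scipy 1.17.1, and figures with matplotlib 3.10.9. The fit was tested on simulated data. Members averaging 1 TPM or more in some group were named, and those at 10 TPM or more, or called, are given by library (1 such member is counted but not reported here); other genes come from lists of partners, proteases, acute phase genes and cell types. Members and lists were chosen with earlier results of these data known. Same-numbered WT and Mut libraries did not deviate together (correlations −0.248 to 0.141), so no pairing was used. Alternatives covered the pseudocount, filters, scaling, array weights, a fit over all tissues, a replicate block and each library left out.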

Additional observations from a re-analysis of the deposited data

Results flagged for a closer look

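A library stood apart from the other 3 of its group, by a gap of at least Dixon's 95% critical value for 4 samples, in 15 of 197 gene-by-group sets tested; chance gives about 5%. In Mut liver 4 genes were highest in library 4: Serpina10 at 142 TPM, Serpind1 at 377, Serpina3g at 13.8 and Serpina3f at 2.06. Also in liver, Serpina3k was lowest in 1 Mut library at 2103 TPM and highest in 1 WT library at 5804, Serpina1a was lowest in 1 WT library at 4202, Serpina1e highest at 4564 and Serpinb1a highest at 2.81. In heart of Mut, Serpina10 reached 1.24 TPM and Serpina3k 49.0 in 1 library. In WT BAT, Serpina1a was lowest at 43.8 TPM and Serpinb6b at 0.799. In WT muscle, Serpinc1 was highest at 36.5 TPM and Serping1 lowest at 40.5.

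The Mut difference varied between tissues for Serpinf1 (limma F test, adjusted p = 0.000732), Serpina3k (0.0414) and Serping1 (0.0495).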

How the results depend on the processing

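No Mut difference of a member was called within a tissue in the fit reported, and the F test has no direction. A reversal of called results could therefore not be judged. Members at an unadjusted p under 0.05 (limma) in a tissue kept the sign of their log2 difference in every alternative that tested them. The Smim30 difference in BAT, which was not called, changed sign in 3 of 9 alternatives. Leaving out WT 1 and 2 in BAT, WT 1 and Mut 4 in liver, or Mut 2 and 3 in muscle, chosen after the data were seen, gave 0 members each. The count of members changed in BAT was 0 in the fit reported and 4 with array weights (5.33% of all genes), 8 in 1 fit over all 32 libraries (6.98%), and 0 to 4 when each library was left out in turn, with 4 only without WT 3 (6.74%). In liver it was 0, 9 in 1 fit over all 32 libraries (15.9%), 4 at an adjusted p under 0.1 (12.1%), and 0 to 0 with each library left out; heart and muscle gave 0 under all their alternatives. The count of members whose Mut difference varied between tissues was 3 in the fit reported, 1 with no filter on low values (0.93% of all genes), 6 with median-ratio scaling (6.61%), 8 with array weights (16%), and 1 to 6 with each library left out; Serping1 lost its call in 27 of 39 alternatives (adjusted p 0.00962 to 0.165) and Serpina3k in 16 (0.00975 to 0.126). Of the fits with 1 library left out, Serping1 passed only without WT 3, WT 4 or Mut 3 of BAT, WT 1 or Mut 3 of heart, WT 2 or Mut 4 of liver, or Mut 1 of muscle. Serpina3k missed the threshold without WT 1, 2 or 4 or Mut 1 or 2 of BAT, WT 2, 3 or 4 or Mut 1 or 2 of heart, WT 3 or 4 or Mut 1 of liver, or WT 2 or 3 of muscle. Members highest in 1 WT tissue numbered 23 to 31 over alternatives and 27 to 28 with each library left out. Without mitochondrial genes, the serpin share of TPM was 0.101% in WT BAT, 0.121% in Mut BAT, 0.109% in WT heart, 0.112% in Mut heart, 4.12% in WT liver, 3.34% in Mut liver, 0.139% in WT muscle and 0.148% in Mut muscle. With the replicate number as a block, no member changed in any tissue, 28 were highest in 1 tissue and 3 had a Mut difference that varied between tissues; all genes called in liver fell from 499 to 126. Same-numbered WT and Mut libraries of a tissue did not deviate together. Between WT tissues, same-numbered libraries correlated at −0.0867 to 0.148. Over the tissue pairs, 5, 6, 2, 5, 5 and 2 of 8 libraries correlated best with their own number. This hint from the data does not settle whether the same mice gave the tissues. Apart from the block fit, the tissue contrasts and the F test treated libraries as independent. The cause of these shifts was not tested. Depth is unknown, so low members could not be told from 0.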
